A study of Mus musculus with 6 samples.

Results

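A set of 6 genes of monoamine uptake and breakdown were followed in single-cell RNA-seq data of mouse amygdala: *Maoa*, *Maob*, *Slc22a3*, *Slc29a4*, *Slc6a2* and *Aldh2*. They were taken as a list of names, chosen with earlier results of these data known, and all 6 were among the 32285 genes counted. Levels were compared between astrocytes, defined as barcodes with at least 20 UMIs (unique molecular identifiers, 1 per captured transcript) of *Slc1a2* and *Slc1a3* together and at most 3 of *Vtn* and *Rgs5*, and pericytes, defined as barcodes with at least 10 UMIs of *Vtn* and *Rgs5* and at most 5 of *Slc1a2* and *Slc1a3*. These gates held 8757 astrocytes and 2260 pericytes of 13546 barcodes, so that the class comparisons do not rest on the 6 genes themselves.

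The cells came from the amygdala of young adult mice, labelled as wild-type C57BL/6N males, sorted with an antibody to the astrocyte surface antigen ACSA-2 after staining for CD11b, CD45 and O1, in 3 libraries that each pooled several mice. The 4 groups of 4 mice were NoFC (placed in the conditioning chamber without shock), FC (given foot shocks there), NoFR (conditioned and kept in the home cage 1 day later) and FR (conditioned and returned to the chamber for fear recall), and tissue was taken 90 min after the behaviour began. All groups shared a dissociation in the presence of actinomycin D, triptolide and anisomycin, which block transcription and translation. A hashtag antibody marked the mouse of origin, which was accepted where the top hashtag had at least 10 UMIs and at least 3 times the next. Of the cells that met this rule, 538 of 1562 pericytes and 111 of 446 astrocytes carried a hashtag not listed for these mice. The sums per library took in all gated cells, also those of unlisted or unassigned origin.

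Noradrenaline, dopamine and serotonin are cleared from the extracellular space by transporters and then degraded inside cells. *Slc6a2* encodes the high-affinity noradrenaline transporter of noradrenergic neurons, whereas *Slc22a3* and *Slc29a4* encode the low-affinity, high-capacity carriers OCT3 and PMAT. *Maoa* and *Maob* encode the monoamine oxidases of the outer mitochondrial membrane, of which MAO-A prefers noradrenaline and serotonin and MAO-B is known as the astrocytic form. The aldehydes that these oxidases produce are oxidized by aldehyde dehydrogenases such as mitochondrial ALDH2, or reduced by aldo-keto reductases.

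In the GENCODE vM21 annotation of GRCm38, which was used here for positions, all 6 genes were found by their Ensembl identifiers. *Maoa* (ENSMUSG00000025037) runs along the forward strand of chromosome X from 16619698 to 16687818, and *Maob* (ENSMUSG00000040147) along the reverse strand from 16709282 to 16817366. Their 3′ ends face each other 21463 bases apart, and neither overlaps another annotated gene. *Aldh2* (ENSMUSG00000029455; chromosome 5, 121566027 to 121593824, reverse strand) is overlapped on the other strand by *Gm42879*, and *Slc22a3* (ENSMUSG00000023828; chromosome 17, 12418960 to 12507704, reverse strand) by *Plg* and AC132106.1. The sources used here do not say whether counting was stranded, so reads of such pairs may not be told apart. *Slc29a4* (ENSMUSG00000050822; chromosome 5, 142692512 to 142722490) and *Slc6a2* (ENSMUSG00000055368; chromosome 8, 92960079 to 93001667) lie on forward strands without an overlapping gene.

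RefSeq promoter windows of 300 bases, from 250 before to 50 after a transcript start on GRCm38.p6, were available for *Maoa*, *Slc22a3* and *Slc29a4*. They are shown for the oxidase that has a window and for the carrier with the most UMIs, with each GC box (GGGCGG, or CCGCCC on the other strand, overlapping matches counted) in capitals.
Maoa, chrX:16619448-16619747, forward strand: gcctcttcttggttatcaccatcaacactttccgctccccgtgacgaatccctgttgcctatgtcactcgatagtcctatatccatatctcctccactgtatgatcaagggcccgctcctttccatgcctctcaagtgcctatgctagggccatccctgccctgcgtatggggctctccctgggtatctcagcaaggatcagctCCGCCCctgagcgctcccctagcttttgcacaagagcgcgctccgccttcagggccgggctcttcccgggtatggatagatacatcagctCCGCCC
Slc29a4, chr5:142701851-142702150, forward strand: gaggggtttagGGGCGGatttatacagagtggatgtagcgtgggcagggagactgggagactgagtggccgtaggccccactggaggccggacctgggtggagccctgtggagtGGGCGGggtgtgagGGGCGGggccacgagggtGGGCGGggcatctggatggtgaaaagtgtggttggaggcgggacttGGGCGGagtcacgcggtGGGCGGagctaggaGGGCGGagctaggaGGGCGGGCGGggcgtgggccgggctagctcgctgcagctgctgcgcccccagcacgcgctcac
The *Maoa* window held 2 matches and the *Slc29a4* window 9, whereas the *Slc22a3* window (chromosome 17, 12507655 to 12507954, reverse strand) held 0. Of 32851 promoter windows of this length in the table, 35.7% held at least 1 match. The GC content was 57.7% for *Maoa*, 70.0% for *Slc29a4* and 52.0% for *Slc22a3*, beside a median of 52.7% over all windows. The *Slc29a4* window lies inside the gene as annotated in GENCODE, which has a transcript that starts further upstream. These matches are descriptions of the letters and were not tested against expression.

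The gated classes were checked against markers. In astrocytes, 10 of 10 astrocyte markers were detected, with a summed level of 8079 to 8143 CPM (counts scaled to 1e+06 UMIs of a sum) over the 3 libraries, and in pericytes 9 of 9 pericyte markers summed to 13047 to 13201 CPM. In pericytes the 10 astrocyte markers stood at 0 to 2.12% of their level in astrocytes, with a median of 1.09%. In astrocytes the pericyte markers stood at 0.0408 to 4.14% of their level in pericytes, with a median of 0.0607%. Pericytes also held transcripts on the lists for smooth muscle (663 to 738 CPM, 5 markers), stromal (360.2 to 435 CPM, 6 markers) and endothelial cells (163 to 182 CPM, 6 markers). Most of these sums came from *Mylk* (520 CPM), from *Col1a2* and *Slc6a13* (208 and 149 CPM) and from *Flt1* (131 CPM). *Cnn1* (0.0755 CPM) and *Lum* (0.452 CPM) were barely counted. *Pecam1* was at 1.40 CPM in both classes, and *Col1a1* was lower than in astrocytes (1.18 against 8.71 CPM). Astrocytes had a median of 9891 UMIs and 3396 genes per cell, pericytes 5006 UMIs and 2392 genes, and the sums behind the comparisons were 91428808 and 11681956 UMIs. Libraries shared 3 to 8 barcode sequences by pairs.

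*Maob*, the oxidase of the MAO-B form, had the largest enrichment in astrocytes of the members that passed the test. It was counted at 112, 114 and 103 CPM in astrocytes of libraries 1 to 3, and at 24, 24.3 and 24.7 CPM in pericytes. The classes did not overlap, and every astrocyte library was more than 4 times as high as every pericyte library. The share of all genes that separate the classes without overlap is not given here. For *Maob*, and for *Maoa* and *Aldh2* below, the lack of overlap is therefore a description only. The mean of *Maob* was 109.5 ± 5.56 CPM (SD, n = 3 libraries) in astrocytes and 24.3 ± 0.349 CPM in pericytes. In edgeR's quasi-likelihood test with the library as a block, the log2 fold change was 2.38 (SE 0.0784, Benjamini-Hochberg adjusted p = 1.10e-20 over 15363 genes), which is 5.22-fold. After each cell was thinned to 3000 UMIs, 25.6 ± 1.01% of astrocytes and 6.49 ± 0.584% of pericytes had a *Maob* UMI (8216 and 2103 cells kept), whereas the unthinned shares were 55.4% and 10.0%. The pericyte level of *Maob* was 22.2% of the astrocyte level, above the 0 to 2.12% of the astrocyte markers. In the 975 pericytes without any UMI of *Slc1a2* or *Slc1a3* it was 26.4 ± 8.50 CPM, and in the 207 pericytes with 3 to 5 such UMIs it was 29.1 ± 5.10 CPM.

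*Maoa*, the oxidase of the MAO-A form, was higher in astrocytes by a smaller margin. The astrocytes of the 3 libraries had 52.0, 54.3 and 56.2 CPM and the pericytes 31.0, 36.2 and 40.5 CPM. Again the lowest astrocyte library lay above the highest pericyte library. The log2 fold change was 0.81 (SE 0.0784, edgeR adjusted p = 3.38e-10), or 1.76-fold. Of thinned cells, 14.7 ± 1.33% of astrocytes and 9.69 ± 0.335% of pericytes had a *Maoa* UMI (unthinned 37.2% and 15.2%). In pericytes without a UMI of *Slc1a2* or *Slc1a3*, *Maoa* was counted at 36.4 ± 5.11 CPM, close to the 35.9 ± 4.76 CPM of all pericytes.

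The balance of the oxidases therefore differed between the classes. Of all UMIs of *Maoa* and *Maob* together, *Maob* made up 68.2% (95% Wilson interval 67.0 to 69.4%), 67.7% (66.3 to 69.0%) and 64.7% (63.3 to 66.1%) in astrocytes of the 3 libraries. In pericytes it made up 43.6% (37.5 to 49.9%), 40.2% (33.8 to 46.9%) and 37.9% (32 to 44.1%), from 86 to 106 UMIs of *Maob* and 128 to 151 of *Maoa* a library. The astrocyte intervals lay above all pericyte intervals, and the means were 66.9 ± 1.87% and 40.6 ± 2.90% (SD, n = 3). Such intervals cover counting error only, and the ratio is one of captured UMIs, not of the absolute transcript numbers of either gene.

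*Aldh2*, the mitochondrial dehydrogenase that follows the oxidases, had the opposite pattern and was higher in pericytes. It stood at 121, 113 and 120.3 CPM in astrocytes and at 337, 322 and 335 CPM in pericytes of libraries 1 to 3. The libraries of each class lay within a narrow band and the bands were far apart. The log2 fold change of astrocytes over pericytes was −1.28 (SE 0.0479, edgeR adjusted p = 2.47e-19), so that *Aldh2* was 2.42-fold higher in pericytes after normalization. Of thinned cells, 61.9 ± 1.65% of pericytes and 29.6 ± 0.900% of astrocytes had an *Aldh2* UMI (unthinned 75.9% and 62.2%). The level was 344 ± 25.0 CPM in pericytes without a UMI of *Slc1a2* or *Slc1a3* and 309.7 ± 23.2 CPM in those with 3 to 5.

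**Figure D1:**
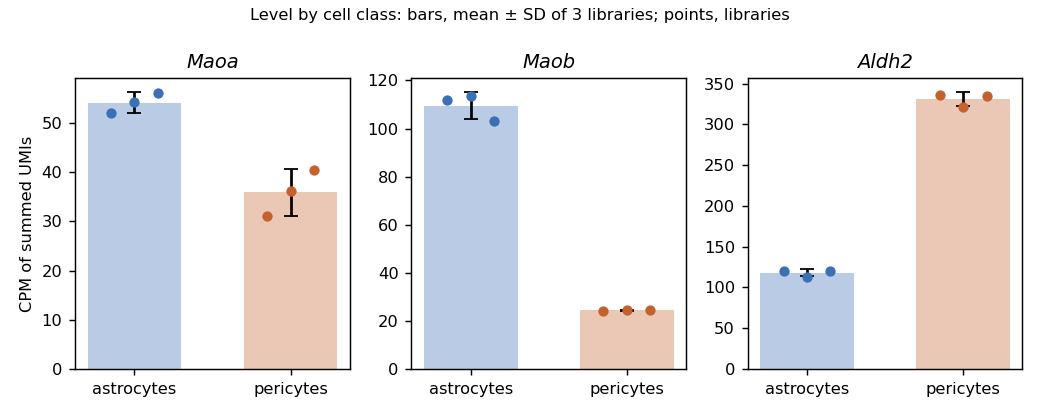
Level of *Maoa*, *Maob* and *Aldh2* in CPM of summed UMIs (linear axes from 0, a separate axis for each gene) in astrocytes and pericytes. Bars are means, error bars SD and points the 3 libraries. *Maob* averaged 109.5 against 24.3 CPM, *Maoa* 54.2 against 35.9 CPM and *Aldh2* 118 against 331 CPM.

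The class contrast was broad, so these calls were not special to the set: 79.6% of the 15363 genes tested passed an adjusted p of 0.05 (42.8% higher in astrocytes and 36.8% higher in pericytes). Of the 6 genes, 5 had a UMI and entered the fit, 3 of these passed edgeR's filter on low counts, and the 3 were all called, 2 higher in astrocytes and 1 higher in pericytes. Normalization by library totals alone, as in the CPM values above, moved the median log2 fold change of all genes by −0.22 relative to the TMM scaling of the fit. With it the log2 fold changes were 0.59 for *Maoa*, 2.16 for *Maob* and −1.50 for *Aldh2*, so that no direction turned.

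The transporters gave little or no signal. *Slc6a2*, the noradrenaline transporter, had 0 UMIs in all 13546 barcodes, which allows up to 0.0328 CPM in astrocytes and 0.257 CPM in pericytes (3 counts of each total). Its absence from the counts went with that of the other markers of noradrenergic neurons *Dbh* and *Th*, both at 0 UMIs in both classes, while *Slc18a2*, the vesicular monoamine transporter, had 2.45 ± 0.176 CPM in astrocytes and 2.76 ± 0.316 CPM in pericytes. *Slc22a3* had 1 UMI, in 1 astrocyte. At this depth, expression of *Slc6a2* in either class, or of *Slc22a3* in pericytes, could not be told from none below these limits. The limit for 0 counts does not apply to *Slc22a3* in astrocytes, where the 1 UMI gave a mean of 0.00914 CPM.

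*Slc29a4* had 30 UMIs in all, of which 20 lay in astrocytes and 0 in pericytes. The astrocyte counts were 10, 3 and 7 UMIs in libraries 1 to 3, or 0.274, 0.111 and 0.252 CPM. These levels are near the 0.257 CPM that 0 counts allow in pericytes, so no fold is given and a difference between the classes was not detectable. Within the astrocyte gate the UMIs were unevenly placed. Of the 20, 15 lay in 10 of the 51 astrocytes that also had at least 10 UMIs of *Sox11*, *Dcx*, *Top2a* and *Mki67* together, genes of immature and dividing cells, and 5 in 4 of the other 8706. That is 10.2 CPM against 0.0556 CPM. By library the barcodes of that gate held 8, 1 and 6 UMIs of *Slc29a4* in 27, 10 and 17 barcodes, at a median depth of 28800 UMIs, which is nearly 3 times that of astrocytes. The part of depth or of cell doublets in this was not tested. The remaining 10 UMIs lay in 4 of 2526 barcodes outside the astrocyte, pericyte and progenitor gates. Of these UMIs, 5 lay in 1 barcode of the smooth muscle gate and 1 in a barcode of the endothelial gate, both defined below.

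Rarer barcodes were too few for a test and are described from pooled counts. The endothelial gate took barcodes with at least 10 UMIs of *Cldn5*, *Pecam1* and *Flt1* together. The smooth muscle gate took at least 30 UMIs of *Acta2*, *Tagln* and *Myh11*, and the stromal gate at least 10 of *Dcn*, *Lum* and *Col1a1*. All of these gates allowed at most 5 UMIs of *Slc1a2* and *Slc1a3*. In the 6 barcodes of the endothelial gate, *Maoa* had 19 UMIs in 5 barcodes, or 447 CPM, and *Maob* had 0. *Aldh2* had UMIs in 12 of 12 barcodes of the smooth muscle gate (222 CPM). It had UMIs in 6 of 6 of the stromal gate (211 CPM) and in 3 of 6 of the endothelial gate (188 CPM). Of these barcodes, 11 of the smooth muscle, 5 of the stromal and 1 of the endothelial gate also lay in the pericyte gate. The smooth muscle and stromal values therefore come mostly from barcodes already counted as pericytes. The progenitor gate took at least 10 UMIs of *Sox11*, *Dcx*, *Top2a* and *Mki67* and at most 3 of *Vtn* and *Rgs5*. It held 54 barcodes, 51 of which also lay in the astrocyte gate. In these 54, *Maob* was counted at 15.0 ± 7.05 CPM, *Maoa* at 26.1 ± 5.10 CPM and *Aldh2* at 39.1 ± 18.9 CPM (n = 3 libraries). For all 3 genes each of these library values lay below every astrocyte library. The share of all genes that separate in this way is not given here, so this is a description only. *Maob* made up 35.6 ± 15.0% of the oxidase UMIs in the progenitor gate, from 3 to 14 UMIs of *Maob* a library.

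Other genes of monoamine handling lay on both sides of the class comparison, as genes in general did. Of 27 listed genes, 26 were in the matrices, 12 passed the filter, 5 were higher in astrocytes, 6 were higher in pericytes and 1 (*Slc18a2*, log2 fold change 0.04) was not called. Over all 15363 genes tested, 42.8% were higher in astrocytes and 36.8% in pericytes, so such a split is not special to the listed genes. Their median log2 fold change was −0.27, beside 0.10 over all genes tested. Of the 14 genes below the filter, 5 had 0 UMIs in both classes and none had more than 25.

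Among the conjugating enzymes, *Hnmt*, which methylates histamine, stood at 26.1 ± 0.540 CPM in astrocytes and 2.88 ± 1.18 CPM in pericytes, with a log2 fold change of 3.42 (SE 0.177, edgeR adjusted p = 4.36e-16). *Sult1a1*, a phenol sulfotransferase, was higher in pericytes (log2 fold change −0.59).

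Among the enzymes that act on aldehydes, the dehydrogenases did not share a direction. *Aldh7a1* (129.6 ± 3.96 against 37.5 ± 2.90 CPM, log2 fold change 2.00), *Aldh9a1* (0.97) and *Aldh1a1* (94.8 ± 13.9 against 64.8 ± 3.88 CPM, 0.77) were higher in astrocytes, as was the alcohol dehydrogenase *Adh5* by a small margin (0.33). *Aldh1a1* was at 45.7 ± 10.4 CPM in pericytes without a UMI of *Slc1a2* or *Slc1a3*, and at 100.4 ± 25.8 CPM in those with 3 to 5. Its log2 fold change ran from 0.59 to 1.29 over 13 alternatives, and it was called in all of them. The part of astrocyte transcripts in its pericyte level was not tested. *Aldh3a2* (−1.05) was higher in pericytes, as *Aldh2* was. The aldo-keto reductases *Akr1b3* and *Akr1a1* were both higher in pericytes, *Akr1b3* with a log2 fold change of −2.11 and *Akr1a1* with −1.43. *Aoc3*, an amine oxidase of vascular cells, had 39 UMIs in pericytes and 2 in astrocytes, a ratio of CPM of 153 (95% exact interval 39.5 to 1305, counting error only). In all, 2132 pericytes had few UMIs of the smooth muscle, stromal and endothelial gate genes (at most 5, 3 and 3). They held 10 of these 39 UMIs, at a mean *Aoc3* level of 0.985 CPM (0 to 2.04 over the 3 libraries). The mean of all pericytes was 3.24 CPM (1.13 to 4.30).

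**Figure D2:**
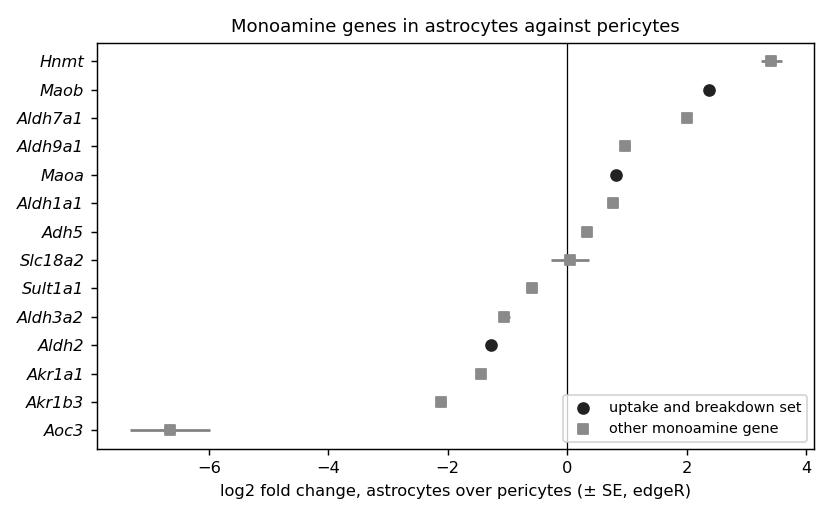
Log2 fold change of astrocytes over pericytes from edgeR's quasi-likelihood fit, with an SE derived from the F statistic (linear axis). Circles are *Maoa*, *Maob* and *Aldh2*, and squares 11 other monoamine genes that passed the filter. *Hnmt* and *Maob* lie farthest to the astrocyte side, at 3.42 and 2.38, and *Aoc3* and *Akr1b3* farthest to the pericyte side. *Slc22a3* and *Slc29a4* are left out for their low counts.

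The genes whose levels most resembled those of each member were found over 9 sums (astrocytes, pericytes and progenitor barcodes in 3 libraries), by Pearson's r of log2(CPM + 1) across 10385 genes. The sums share libraries, and r here mainly follows the classes. *Clybl*, *Abr* and *Abhd3* were most like *Maob* (r = 0.996, 0.994 and 0.994), and *Prkcd*, *Slc8b1* and *Pld2* most like *Maoa* (0.990, 0.984 and 0.980). *Pdgfrb*, the growth factor receptor that marks pericytes, *Notch3* and *Ece1* were most like *Aldh2*, each with r = 0.994.

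Astrocytes with at least 5000 UMIs were then split by *Gfap*, *Agt*, *Igfbp2* or *Adrb1*, with at least 1 UMI against 0 after thinning to 5000 UMIs, and compared over the 3 libraries. *Maob* did not pass in any split: it stood at 109.4 to 110.06 CPM in the negative and 110.4 to 116 CPM in the positive astrocytes, with log2 fold changes of 0.02 to 0.09 and SEs of 0.0435 to 0.0603. *Aldh2* was the member that changed most often. It averaged 139 ± 4.38 CPM in *Igfbp2*-positive and 110.7 ± 4.29 CPM in *Igfbp2*-negative astrocytes (log2 fold change 0.34, SE 0.0429, edgeR adjusted p = 9.93e-08). In *Gfap*-positive astrocytes it was 135 ± 11.5 against 116 ± 3.22 CPM (0.22, SE 0.0583, edgeR adjusted p = 0.00732). In *Agt*-positive astrocytes it was 122 ± 4.82 against 112 ± 5.66 CPM (0.14, SE 0.0494, edgeR adjusted p = 0.0344).

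*Maoa* changed in the *Agt* split, with 58.2 ± 1.78 CPM in *Agt*-positive and 49.9 ± 2.37 CPM in *Agt*-negative astrocytes (log2 fold change 0.24, SE 0.0560, edgeR adjusted p = 0.00160). In *Igfbp2*-positive astrocytes its log2 fold change was −0.14 (SE 0.0592) and missed the threshold at an edgeR adjusted p of 0.0588. In *Adrb1*-positive astrocytes, those with transcripts of a β-adrenoreceptor, 0 of the 5 members in the fit were called, with log2 fold changes of −0.01 for *Maoa*, 0.02 for *Maob* and 0.05 for *Aldh2*. The background differed widely between the splits: 9.18% of all genes were called for *Gfap* (4.88% higher and 4.3% lower in positive cells), 22.6% for *Agt* (10.5% and 12.1%), 37.8% for *Igfbp2* (19.3% and 18.5%) and 1.88% for *Adrb1* (0.46% and 1.42%), beside 1, 2, 1 and 0 of the 5 members. The *Aldh2* call in the *Gfap* split was lost without library 1 (adjusted p = 0.234) and without the library block (0.0993), and that in the *Agt* split without library 2 (0.194), without library 3 (0.287) and without the block (0.0940). *Maoa* passed in the *Igfbp2* split without library 3 (log2 fold change −0.21, adjusted p = 0.0173). Positive cells were deeper than negative ones for *Gfap* (library medians of 11124 to 11727 against 10184 to 10781 UMIs) and *Igfbp2* (11339.5 to 11920.0 against 9933 to 10513), and shallower for *Agt* (9758 to 10384 against 10962 to 11608.5). The part of depth was not tested.

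Of the other monoamine genes in the fit, 1 of 11 was called for *Gfap*, 3 for *Agt*, 5 for *Igfbp2* and 1 for *Adrb1*, and *Aldh1a1*, a cytosolic dehydrogenase, was called in every split. It was higher in *Igfbp2*-positive astrocytes (163 ± 39.0 against 73.4 ± 6.89 CPM, log2 fold change 1.17, edgeR adjusted p = 2.25e-16) and in *Adrb1*-positive ones (124 ± 22.4 against 91.5 ± 13.6 CPM, 0.45, adjusted p = 3.56e-07). It was lower in *Agt*-positive astrocytes (70.9 ± 6.96 against 122 ± 22 CPM, −0.76, adjusted p = 1.93e-12) and in *Gfap*-positive ones (77.3 ± 29.6 against 97.0 ± 12.6 CPM, −0.33, adjusted p = 0.00293). The *Aldh1a1* call in the *Gfap* split was lost without library 2 (adjusted p = 0.252) and without the library block (0.369), and that in the *Adrb1* split without the block (0.148). *Hnmt* moved the other way, being higher in *Agt*-positive astrocytes (log2 fold change 0.38, adjusted p = 1.10e-04) and lower in *Igfbp2*-positive ones (−0.23, adjusted p = 0.0275). The *Hnmt* call in the *Igfbp2* split was lost without library 2 (0.240), without library 3 (0.0883) and without the block (0.0534).

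**Figure D3:**
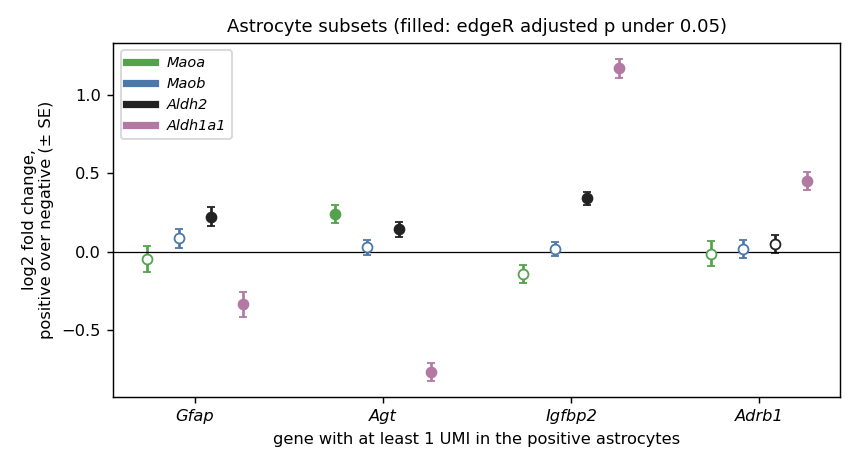
Log2 fold change (± SE) of astrocytes with a UMI of *Gfap*, *Agt*, *Igfbp2* or *Adrb1* over those without, for 4 genes. Filled points passed an edgeR adjusted p of 0.05. *Maob* stays near 0 in all splits, *Aldh2* lies above 0 in 3 filled points, and *Aldh1a1* spans −0.76 (*Agt*) to 1.17 (*Igfbp2*).

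The comparison of the behavioural groups asked whether fear learning or recall changed these genes. Pericytes carried strong hashtags, and 1024 of them were assigned to 16 listed mice, 36 to 110 cells and 187654 to 629179 UMIs a mouse. *Slc6a2*, *Slc22a3* and *Slc29a4* had 0 UMIs in all of them. *Aldh2* was counted at 370.5, 372, 340.1 and 369.9 CPM in the pericytes of NoFC mice 1 to 4. The mice of the FC group had 323, 342, 349.98 and 290.04 CPM, the NoFR mice 372, 416, 332 and 327 CPM and the FR mice 251, 297, 259 and 312 CPM. All FR mice lay below all NoFC and all NoFR mice, and overlapped the FC mice. The share of all genes that separate these groups in such a way is not given here.

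The *Aldh2* mean of the FR mice was 279.8 ± 29.5 CPM (SD, n = 4 mice), beside 362 ± 41.1 for the NoFR mice, 326 ± 26.7 for the FC mice and 363 ± 15.5 for the NoFC mice. For FR over NoFC the log2 fold change was −0.35 (SE 0.126, unadjusted p = 0.00851, edgeR adjusted p = 0.552), and for FR over NoFR it was −0.31 (SE 0.135, unadjusted p = 0.0251, edgeR adjusted p = 0.748). Neither passed after adjustment over 6540 genes. The 2-sided exact permutation test over mice gave p = 0.0286 for both, the smallest value that 4 against 4 allow, and 0.257 after Benjamini-Hochberg adjustment over 18 comparisons. Within libraries, FR mice had 274, 259 and 312 CPM in libraries 1 to 3, beside 371, 340.1 and 369.9 CPM in NoFC mice and 394 and 329.7 CPM in the NoFR mice of libraries 1 and 3. Library 2 had no NoFR mouse, and most of these values rest on 1 or a pair of mice. The summed level of the 10 astrocyte markers in these pericytes ranged from 68.0 to 102 CPM in NoFC, 81.4 to 140.5 in NoFR and 63.9 to 111 in FR mice, and that of the 6 endothelial markers from 136 to 175, 81.4 to 198 and 149 to 561 CPM. That of the 6 stromal markers was 322 to 387 CPM in NoFC, 304 to 508 in NoFR and 388 to 415 in FR mice, so that every FR mouse lay above every NoFC mouse. The FC mice, at 396 to 477 CPM, also all lay above every NoFC mouse, so this was not particular to FR mice. The summed level of the 5 smooth muscle markers was 711 to 1063 in NoFC, 575 to 1167 in NoFR and 500.2 to 1372 CPM in FR mice, with medians of 885, 782 and 653 CPM. A further fit took only pericytes with at most 5, 3 and 3 UMIs of the smooth muscle, stromal and endothelial gate genes. That limit does not cover *Mylk*, *Col1a2* or *Slc6a13*. The *Aldh2* log2 fold changes were then −0.33 for FR over NoFC and −0.28 for FR over NoFR (edgeR adjusted p = 0.643 and 0.800).

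The oxidases varied more between mice. In pericytes *Maoa* ranged from 29.3 to 47.7 CPM in NoFC, 18.7 to 42.5 in FC, 17.4 to 50.9 in NoFR and 8.86 to 45.5 in FR mice, from 2 to 30 UMIs a mouse. *Maob* ranged from 8.0 to 28.6, 13.9 to 31.2, 20.8 to 28.1 and 12.1 to 26.6 CPM, from 3 to 18 UMIs a mouse. All groups overlapped for both genes. The log2 fold changes of the 6 pairs lay between −0.32 and 0.17 for *Maoa* and between −0.60 and 0.81 for *Maob*, with SEs of 0.330 to 0.410 and 0.442 to 0.519, and none had an unadjusted edgeR p under 0.05. A difference of the size seen for *Aldh2* would be about 1 SE or less for the oxidases.

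**Figure D4:**
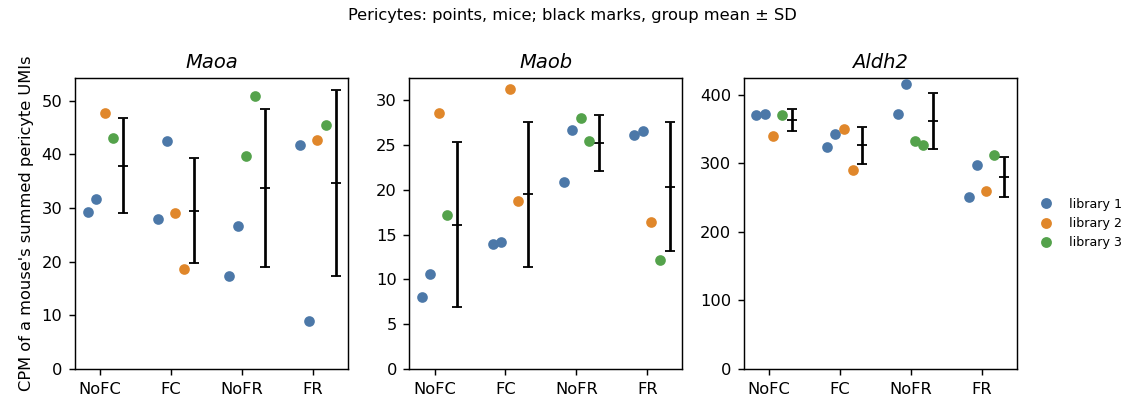
CPM of *Maoa*, *Maob* and *Aldh2* in the summed pericyte UMIs of each mouse (linear axes from 0) by behavioural group. Points are mice, coloured by library, and black marks the mean ± SD of 4 mice. The FR mice lie between 251 and 312 CPM for *Aldh2*, below the NoFC mice at 340.1 to 372 CPM, while the groups overlap for *Maoa* and *Maob*.

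Over the 6 pairs in pericytes, 0 members were called by edgeR and 0 by DESeq2, and 2 of 18 tests of *Maoa*, *Maob* and *Aldh2* had an unadjusted edgeR p under 0.05. The background was 0% of 6540 genes called for FC over NoFC, 1.07% for NoFR over NoFC, 0% for FR over NoFC, 0.443% for NoFR over FC, 0% for FR over FC and 0.0917% for FR over NoFR. At an unadjusted edgeR p under 0.05 it was, in the same order, 4.59, 8.61, 6.41, 7.69, 4.85 and 6.25%. The pairs share groups and are not independent. The edgeR F-test over the groups gave an adjusted p of 0.665 for *Aldh2*, with 0.642% of genes called.

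Astrocytes carried weak hashtags, with a median of 4 UMIs for the top and 2 for the next, and only 335 of 8757 were assigned to a listed mouse. In all, 11 mice had at least 5 such astrocytes, with 2 NoFC, 2 FC, 4 NoFR and 3 FR mice, and FC mouse 1 gave 159 of their 316 cells. *Aldh2* stood at 122 and 63.9 CPM in the NoFC mice, 116 and 119 in the FC mice, 114, 111, 113 and 26.7 in the NoFR mice and 255, 123 and 48.1 in the FR mice. *Maob* stood at 77.5 and 87.9, at 143 and 69.9, at 81.4, 86.9, 122 and 107, and at 234, 143 and 61.9 CPM in the same order. The highest value of each gene came from FR mouse 1, which had only 5 astrocytes, 11 UMIs of *Maob* and 12 of *Aldh2*. The median mitochondrial share of UMIs was 12.98% in NoFC mouse 3 (*Aldh2* at 63.9 CPM) and 12.93% in NoFR mouse 4 (26.7 CPM). In the other mice used it was 2.18 to 3.66%. *Maoa* ranged from 15.8 to 106 CPM over the 11 mice. *Slc29a4* had 1 UMI, in 1 NoFR mouse, and *Slc22a3* and *Slc6a2* had 0.

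For these 11 mice 0 members were called by edgeR and 0 by DESeq2 in any of the 6 pairs, and 0 of 18 tests of *Maoa*, *Maob* and *Aldh2* had an unadjusted p under 0.05. The background was 0.0304% of 3287 genes called for FC over NoFC, 0.0913% for NoFR over NoFC, 0.0304% for FR over NoFC and 0% for NoFR over FC, FR over FC and FR over NoFR. At an unadjusted edgeR p under 0.05 it was, in the same order, 2.74, 3.89, 3.83, 2.71, 2.68 and 3.38%. The log2 fold changes lay between −0.72 and 0.61 with SEs of 0.410 to 0.747. For *Aldh2* all 4 NoFR mice lay below both FC mice, with means of 91.0 and 117 CPM (2-sided exact permutation p = 0.133, adjusted 1.0 over 18 comparisons), the only pair of groups without overlap among the 18. How many of all genes separate in this way is not given here, so the lack of overlap is a description only. No exact permutation p was under 0.133, which is the smallest that this 2-sided test allows for 4 mice against 2. For 2 mice against 2 the smallest is 0.333. Under a looser hashtag rule (at least 5 UMIs and 2 times the next), which gave 1402 astrocytes of all 16 mice, the means of the NoFC, FC, NoFR and FR mice were 112, 114, 116 and 129 CPM for *Maob* and 96.3, 115, 113 and 115 CPM for *Aldh2* in that order of groups, and again 0 members were called.

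**Figure D5:**
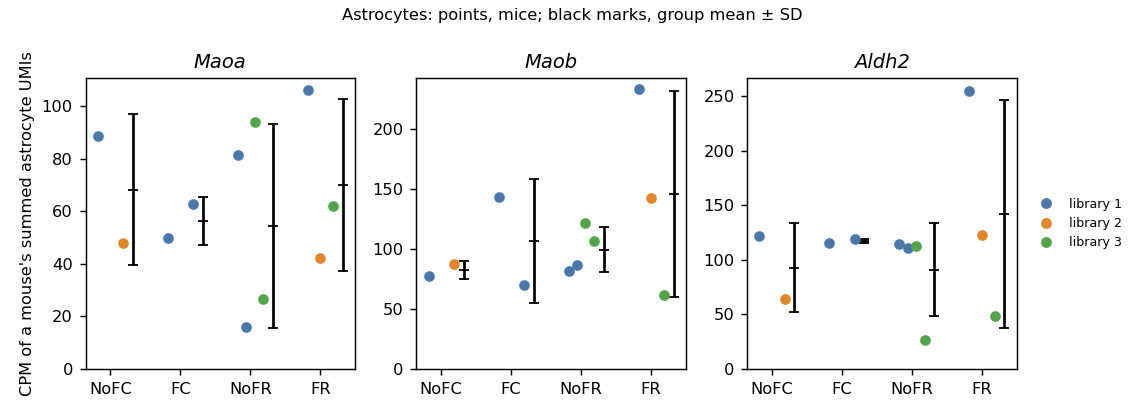
CPM of *Maoa*, *Maob* and *Aldh2* in the summed astrocyte UMIs of the 11 mice with at least 5 assigned astrocytes (linear axes from 0). Points are mice, coloured by library, and black marks the mean ± SD of 2, 2, 4 and 3 mice. The FR mice span 61.9 to 234 CPM for *Maob*, which takes in all other mice. For *Aldh2* the 4 NoFR mice, at 26.7 to 114 CPM, lie below both FC mice, at 116 and 119 CPM.

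Among the other monoamine genes, 0 of 9 in the fit were called in any pair in pericytes, and 1 of 3 in 1 pair in astrocytes. That gene was *Aldh1a1*, for NoFR over NoFC (log2 fold change −2.41, SE 0.515, edgeR adjusted p = 0.0491). The NoFC mice had 465 and 56.0 CPM and the NoFR mice 73.3, 55.3, 150.4 and 214 CPM, so that the groups overlapped. The high NoFC value rested on 42 UMIs in 10 astrocytes, of which 1 cell gave 27. Without that mouse the log2 fold change was −0.53 (adjusted p = 0.946), and under the looser hashtag rule −0.47 (0.999). The call was kept under 9 of 18 alternatives, whose log2 fold changes ran from −3.09 to −0.47.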

How the data were processed

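For every barcode of 3 libraries, the deposited matrices hold raw UMI counts of genes and hashtags, with 31700569 to 42350059 gene UMIs each, made with Cell Ranger on mm10 (GENCODE vM23). The submitters' processing notes give version 3.0, and the matrix headers 7.0.0. A deposited table of hashtags named each mouse and its group.

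From these, cells were gated as described, without a doublet caller or a mitochondrial filter, and counts were summed per library or mouse. As both classes or subsets came from each library, the library was a block in those fits and a covariate between groups of mice. Libraries are pools of mice, so p-values between classes measure how the class difference varies between pools, not between mice. Sums were tested with edgeR 4.0.16 (quasi-likelihood, TMM, filterByExpr, with members that had a UMI kept, Benjamini-Hochberg over all genes) in R 4.3.3. The SE given for an edgeR log2 fold change is its size without sign divided by the square root of the F statistic. The steps were tested on simulated data. DESeq2 1.42.0 was an alternative, as were other filters, gates, hashtag rules and left-out libraries or mice. Mice were also compared by exact permutation tests of the difference in mean CPM (scipy 1.17.1). Gate genes, and the splitting gene, were left out of the tests. Genes were named by list: the 6 members, and other monoamine genes where they passed a test. Members and lists were chosen with earlier results of these data known. A further gene of the list entered its counts and median, and its values are not reported here.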

Additional observations from a re-analysis of the deposited data

Results flagged for a closer look

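Values of *Maoa*, *Maob* and *Aldh2* per mouse were examined in 15 groups of 4 mice. In 3 of them 1 mouse was flagged by its gap to the nearest mouse as a share of the range, where chance gives about 1 in 20. Such a rule can flag a small gap where the other 3 mice agree closely, as for *Aldh2* in NoFC pericytes. In pericytes, *Maoa* was at 8.86 CPM in FR mouse 2, from 2 UMIs, whereas the other FR mice had 41.8 to 45.5 CPM. In pericytes, *Aldh2* was at 340.1 CPM in NoFC mouse 3, from 214 UMIs, whereas the other NoFC mice had 369.9 to 372 CPM. In astrocytes, *Aldh2* was at 26.7 CPM in NoFR mouse 4, from 1 UMI in 9 cells, whereas the other NoFR mice had 110.6 to 114 CPM. The astrocytes of NoFR mouse 4 had a median mitochondrial share of 12.93%, beside 2.59 to 3.26% in the other NoFR mice.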

How the results depend on the processing

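The calls of *Maoa*, *Maob* and *Aldh2* between astrocytes and pericytes held under all 13 alternatives, with log2 fold changes of 0.75 to 0.95, 2.32 to 2.69 and −1.35 to −1.21. 1 of the alternatives, cells without any UMI of the other class's gate genes, was chosen after seeing the data. With sums per mouse, paired within mice, 1360 genes were higher in astrocytes and 1807 in pericytes, in place of 6569 and 5661, and 3 members were still called. Without the library block 4 members were called, as *Slc29a4* passed at an adjusted p of 0.0476. Without thinning, the shares of cells with a UMI rose to 37.2% and 15.2% for *Maoa*, 55.4% and 10.0% for *Maob* and 62.2% and 75.9% for *Aldh2*.

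No paired analysis was possible because the groups hold different mice, whose numbers only name them. In no alternative was a member called between groups of mice. In astrocytes 5 genes of all were called over the 6 pairs, 2 with DESeq2, 12 without a filter, 3 without the library term and 0 with the looser hashtag rule or with cells under 6% mitochondrial UMIs, and 3 to 15 without 1 mouse. In pericytes 105 genes were called, 60 with DESeq2, 174 without a filter and 54 to 133 without 1 mouse. *Aldh2* stayed lower in FR pericytes under all 24 alternatives, with log2 fold changes of −0.43 to −0.25 for both pairs, and was called in none.

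In the astrocyte splits, without the library block 0 members were called for *Gfap* and 1 for *Agt*, and 145 genes of all for *Gfap* (1322 with the block) and 25 for *Adrb1* (270 with it). Leaving out 1 library gave 0 to 1 members and 637 to 1134 genes for *Gfap*, 1 to 2 members and 2173 to 3437 genes for *Agt*, 1 to 2 members for *Igfbp2* and 127 to 278 genes for *Adrb1*. For *Igfbp2*, 2 members were called without a filter and 2 with the split on full counts, where *Maoa* passed at log2 fold changes of −0.17 and −0.23. With that split, 512 genes were called for *Adrb1*. Some differences near 0 changed sign. *Maob* in the *Igfbp2* split was at −0.0066 without a filter and between −0.0091 (without library 3) and 0.0276 without 1 library, and in the *Adrb1* split at −0.0075 without a filter. *Maoa* in the *Adrb1* split was between −0.0717 and 0.0656 (without library 3) without 1 library. *Hnmt* in the *Gfap* split was at −0.0279 with the split on full counts. The causes were not tested. Depth limits the oxidases in the groups of mice, where a mouse had at most 30 pericyte UMIs of *Maoa* and 18 of *Maob*.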

Other observations

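The oxidases were counted in the same cells about as often as their separate shares give. In astrocytes thinned to 3000 UMIs, 3.61, 4.46 and 3.87% had UMIs of both *Maoa* and *Maob* in libraries 1 to 3, where the products of their shares are 3.41, 4.05 and 3.87%. In pericytes 0.988, 0.482 and 0.894% had both, where the products are 0.590, 0.585 and 0.714%. Most thinned cells had a UMI of neither gene, 62.6 to 64.6% of astrocytes and 83.8 to 85.2% of pericytes.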
